A study of Rattus norvegicus with 6 samples.

Results

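Respiratory complex I is built from subunits of 2 genomes, and the mRNAs of 42 of its subunits were followed here in rat trigeminal ganglia. Members were taken by gene symbol from the deposited count table: 7 are encoded in mitochondrial DNA (ND1 to ND6 and ND4L) and 35 in the nucleus. All 42 had counts in each of the 6 libraries and all passed the filter on low counts, among 29884 genes in the table, of which 16478 passed that filter. No member was called different between the 2 groups of ganglia. For the median of the mitochondrial and of the nuclear members, the spread between libraries was wider than the difference between groups. Mitochondrial and nuclear members spread in different ways.

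Complex I takes electrons from NADH, passes them to ubiquinone and pumps protons across the inner mitochondrial membrane. Its membrane arm contains the mitochondrially encoded ND proteins, while the nuclear core subunits sit in the arm that projects into the matrix, where NADH is oxidised. Accessory subunits, all nuclear, surround this core and are needed for assembly and stability. Sensory neurons, whose long axons and ion pumping use much ATP, depend heavily on this chain.

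The ganglia, which hold the cell bodies of facial sensory neurons, came from wild-type rats. In the 3 injury samples the infraorbital nerve had been chronically constricted (CCI-ION), and the 3 conduit samples had the same constriction followed by SFM-Gel-light @NGC treatment. Every sample therefore carries the injury, and the sources used here state no strain, sex or age. Injury samples 1, 2 and 3 are labelled days 14, 15 and 16 after injury and conduit samples 1, 2 and 3 days 17, 18 and 19, so day and group cannot be told apart. Injury samples 1 and 2 are labelled batch 1, injury sample 3 and conduit sample 1 batch 2, and conduit samples 2 and 3 batch 3. Whether the samples came from different animals is not stated, and p-values here measure only the spread between samples, which may be technical. In such tissue, fewer cells of a type and less RNA per cell cannot be told apart.

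Libraries held 40172473 to 41903629 counts, and the listed sensory neuron (12), Schwann cell (8) and satellite glia (6) markers were all detected in every library. Protein-coding genes of mitochondrial DNA took 5.07% to 6.44% of counts. Skeletal muscle transcripts set conduit sample 2 apart. The 13 muscle markers in the table, which include actin and myosin genes of the fibre, summed to 12070.5 CPM (counts scaled to library size by TMM) there, to 695 CPM in injury sample 1 and to 9.5 to 22.1 CPM in the other 4 libraries, where 1 marker, Myh1 in injury sample 3, was at 0. The median log2 fold changes of both classes are also given without these 2 libraries. Levels, ratios, correlations and counts of members whose groups do not overlap are given with all 6 libraries only.

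Per length, the mitochondrial messages were far more abundant than the nuclear ones. In deposited FPKM, which corrects for gene length, 6 of the 7 mitochondrial members averaged between 809 (ND5) and 3054 (ND1) over the 6 libraries, and all of these exceeded Ndufb8, the most abundant nuclear member at 207 FPKM. Among the nuclear members, 18 averaged above 100 FPKM and 16 between 33.0 and 100. The 6 nuclear core members had a median of 82.7 FPKM, from Ndufs8 at 44.4 to Ndufv2 at 187. Accessory subunits named Ndufa had a median of 108 FPKM and those named Ndufb, which lie in the distal part of the membrane arm, 121 FPKM. These orders were seen in a plot of every value.

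**Figure D1:**
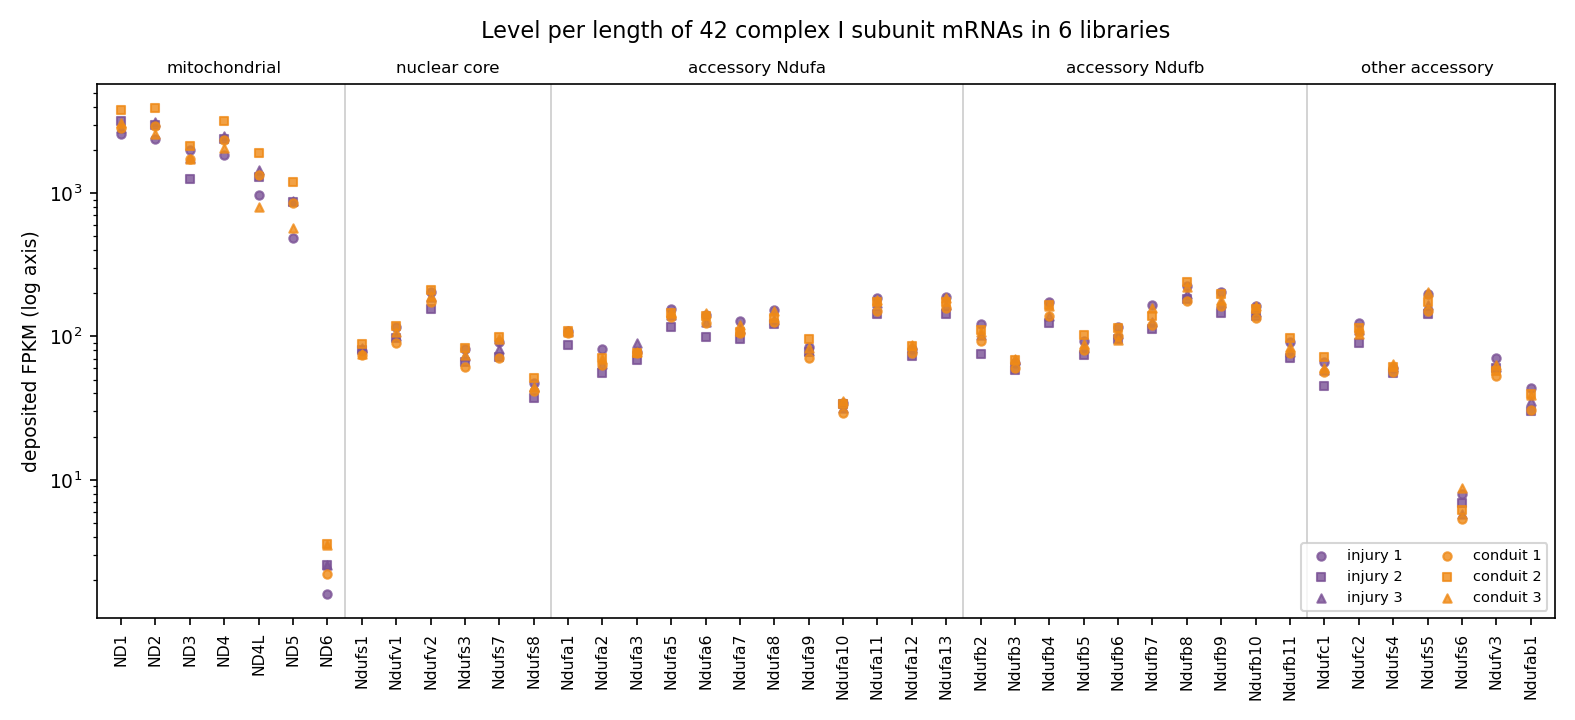
Deposited FPKM (log axis) of the 42 complex I members, grouped by genome and role. Each point is 1 library, with injury in purple and conduit in orange; ND1 to ND5 and ND4L lie above every nuclear member, and ND6 and Ndufs6 lie far below the rest.

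ND6 and Ndufs6 had far lower levels than the rest of their class. ND6, a small membrane subunit whose gene lies on the opposite strand of mitochondrial DNA from the other ND genes, averaged 2.66 FPKM, so ND5 was 304 times as abundant per length. Its counts were 34, 53 and 54 in injury samples 1 to 3 and 47, 75 and 76 in conduit samples 1 to 3. The exact 95% Poisson interval, which covers counting error only, was 0.585 to 1.18 CPM around 0.845 CPM in injury sample 1 and 1.503 to 2.39 CPM around 1.91 CPM in conduit sample 3. ND6 mRNA is known to lack most of the poly(A) tail that other mitochondrial mRNAs carry, and the protocol purified mRNA. The strand setting of the counting is not stated, so reads of opposite strands may not have been kept apart. The part of the poly(A) tail or of the strand setting in the level of ND6 was not tested. Ndufs6, an accessory subunit of the NADH-oxidising part, averaged 6.82 FPKM, with 103 to 175 counts. A second row of the table, Ndufs6l1, averaged 109 FPKM, and RefSeq lists that name as a synonym of Ndufs6. Ndufs6 held 5.38% of the counts of both rows, so the level of either is uncertain.

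The large mitochondrial subunits that form the proton-pumping channels varied together. ND4 was 2568, 3127 and 3365 CPM in injury samples 1 to 3 and 3200.4, 4487 and 2979 CPM in conduit samples 1 to 3. ND2 was 2525, 2935 and 3168 CPM in injury and 2997, 4141 and 2829.8 CPM in conduit. ND5, the longest of them, was 904, 1512 and 1568 CPM in injury and 1545, 2244 and 1093 CPM in conduit. In all 3 genes conduit sample 2 was highest, injury sample 1 was lowest and conduit sample 3 was the lowest of its group, so the groups overlapped. Across the 6 libraries the Pearson correlation of ND2 with ND4 in log2 CPM was 0.998 and that of ND4 with ND5 was 0.95; these genes share 1 precursor transcript and the same libraries.

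The other mitochondrial members followed this order only in part. ND1, which borders the ubiquinone site, was 2509.7, 2875 and 2644 CPM in injury and 2669, 3725 and 3114 CPM in conduit. ND4L, a small membrane subunit read from the same mRNA as ND4, was 294, 365 and 418 CPM in injury and 393, 574 and 251 CPM in conduit. ND4L thus reached its minimum in conduit sample 3, where ND4 stood 11.8 times above it, against 7.82 to 8.73 times in the other libraries. ND3, another small membrane subunit, ran differently. It was 707, 417 and 595 CPM in injury and 596, 753 and 636 CPM in conduit, so that injury sample 1 was the highest of its group for ND3 and the lowest for ND5. The ratio of ND5 to ND3 in CPM was 1.28 in injury sample 1 and 1.72 in conduit sample 3, and 2.59 to 3.63 in the other 4 libraries. Across libraries ND3 correlated with ND5 at -0.03 and with ND1 at 0.28.

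Between the groups, each of the 7 mitochondrial members had a higher mean in conduit, and none was called. ND1 was 2676 ± 185 CPM in injury and 3169 ± 530.1 CPM in conduit (SD, n = 3 per group; log2 fold change 0.24 with an SE of 0.14; adjusted p = 0.9998 in edgeR's quasi-likelihood test). ND4 was 3020.0 ± 409 CPM and 3555 ± 814 CPM (log2 fold change 0.24, SE 0.18). ND5 was 1328 ± 368 CPM and 1628 ± 580.1 CPM (log2 fold change 0.29, SE 0.31). ND6 had the largest estimate, 0.53, with an SE of 0.35, and ND4L the smallest, 0.18, with an SE of 0.29. ND2 and ND3 were both at 0.21, with SEs of 0.17 and 0.20. ND1 also had the smallest unadjusted p in edgeR among all 42 members, 0.118. The median log2 fold change of the 7 was 0.24, against 0.0017 over all 16478 genes tested. It was 0.14 without injury sample 1 and 0.04 without conduit sample 2, and without conduit sample 2 and injury sample 1, the 2 libraries with muscle transcripts, it was -0.06, with 3 of 7 members higher. The part of muscle RNA in the difference was not tested beyond these values.

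The nuclear core subunits, most of which carry flavin or iron-sulphur clusters, were highest in conduit sample 2 in all 6 cases. That library, the one with the most muscle transcripts, was highest for 12.8% of all tested genes. It was also highest for 6 of 7 mitochondrial members and for 6 of 6 other protein-coding genes of mitochondrial DNA. Ndufv1, the subunit that binds NADH, was 186, 146 and 156 CPM in injury and 139, 190.2 and 178 CPM in conduit. Ndufs1, the largest subunit, with several iron-sulphur clusters, was 199, 189 and 200.4 CPM in injury and 180.4, 225 and 198 CPM in conduit. Conduit sample 1 was lowest for both genes, while injury sample 1 was close to conduit samples 2 and 3 for Ndufv1. Ndufv2, a partner of Ndufv1 in NADH oxidation, was 178, 125 and 158 CPM in injury and 146, 183 and 172 CPM in conduit. Ndufs7, which carries the last cluster before ubiquinone, was 90.9, 66.8 and 77.6 CPM in injury and 68.4, 99.1 and 97.9 CPM in conduit. For Ndufs7 and Ndufv2 the lowest library was injury sample 2. Ndufs3, which helps form the ubiquinone-binding arm, ranged from 63.9 CPM (conduit sample 1) to 89.5 CPM (conduit sample 2), and Ndufs8, which carries a pair of clusters, from 52.9 CPM (injury sample 2) to 78.2 CPM (conduit sample 2). The log2 fold changes of the 6 ran from 0.04 (Ndufs3, SE 0.16; Ndufs1, SE 0.10) to 0.17 (Ndufs7, SE 0.18), and the groups overlapped for each.

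Accessory subunits, like the core, gave small estimates, nearly all of them positive. Of 12 Ndufa members 12 had a positive log2 fold change (median 0.08), of 10 Ndufb members 10 (median 0.11), and of the other 7 accessory members 6 (median 0.06). Ndufa6, an accessory subunit of the matrix arm, had the smallest p of the accessory members: it was 73.9, 48.7 and 64.2 CPM in injury and 62.9, 73.5 and 79.0 CPM in conduit (log2 fold change 0.21, SE 0.17; edgeR adjusted p = 0.9998). The groups overlapped, with injury sample 2 lowest and conduit sample 3 highest. Ndufc1, of the membrane arm, was 29.7 ± 6.38 CPM in injury and 34.2 ± 4.79 CPM in conduit (n = 3 per group), Ndufb5 89.1 ± 12.9 CPM and 100.2 ± 13.9 CPM, and Ndufa12, which sits on the matrix arm, 42.8 ± 4.23 CPM and 46.9 ± 4.56 CPM. The single member with a negative estimate was Ndufv3, a small accessory protein of the NADH-oxidising part. It was 111, 87.2 and 92.0 CPM in injury and 79.97, 90.2 and 103 CPM in conduit (log2 fold change -0.09, SE 0.13). Ndufab1, the mitochondrial acyl carrier protein, was 99.3 ± 22.3 CPM in injury and 104 ± 16.7 CPM in conduit, and Ndufb8 133 ± 18.6 CPM and 146 ± 25.7 CPM.

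Members with well-studied roles in assembly showed how small the group differences were beside the spread of single libraries. Ndufs4, a matrix-arm subunit whose loss causes Leigh-like disease in mice, was 90.9, 77.96 and 89.7 CPM in injury and 82.3, 92.5 and 99.9 CPM in conduit (log2 fold change 0.09, SE 0.11). Ndufa13, also known as GRIM-19, was 90.5, 64.5 and 76.3 CPM in injury and 73.4, 84.6 and 92.1 CPM in conduit (log2 fold change 0.11, SE 0.15). Ndufa9, which helps join the matrix and membrane arms, was 114, 97.99 and 103 CPM in injury and 92.4, 129 and 116 CPM in conduit (log2 fold change 0.10, SE 0.14). In Ndufs4 and Ndufa13 injury sample 2 was lowest and conduit sample 3 highest, and in Ndufa9 conduit sample 1 was lowest and conduit sample 2 highest. Ndufa1, a small membrane-anchored subunit, was 47.3, 35.5 and 45.2 CPM in injury and 44.3, 47.2 and 48.3 CPM in conduit, with injury sample 2 apart from the other 5 libraries. Ndufb7 was 90.02, 57.8 and 65.8 CPM in injury and 63.8, 76.6 and 88.9 CPM in conduit, and here injury sample 1 was the highest of all 6. Over the nuclear members, the highest library stood 1.25 to 1.77 times above the lowest (median 1.43).

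Counted over the whole complex, 0 of 42 members passed an adjusted p of 0.05 in edgeR, where 0.00607% of all tested genes did (1 gene). At an unadjusted edgeR p under 0.05 there were also 0 of 42, against 5.35% of all tested genes. DESeq2 called 0 of 42 as well, against 1.19% of the genes to which it gave an adjusted p. No member lay in every conduit library above every injury library, which held for 5.41% of all tested genes, and no member lay in every conduit library below every injury library, which held for 4.22%. The log2 fold change was below its own SE for 30 of the 42 members and below 2 SE for all 42. It was positive for 41 of 42 members, against 50.5% of all tested genes. Of the 39 nuclear genes of complexes II to V, 38 were positive too. The members' estimates are not independent, because they moved together between libraries.

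**Figure D2:**
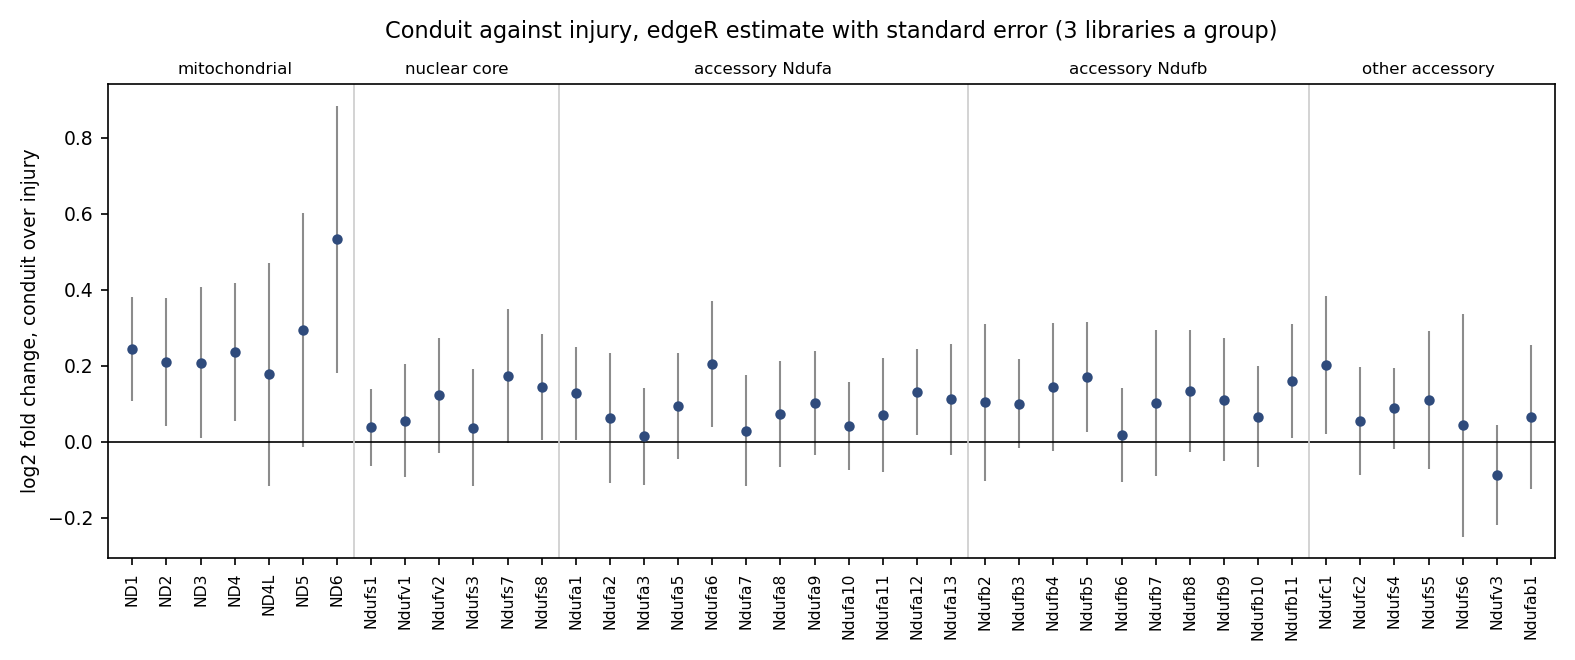
Log2 fold change of conduit over injury for each of the 42 members, with the edgeR standard error as a bar (3 libraries per group). Estimates run from -0.09 (Ndufv3) to 0.53 (ND6), and each lies within 2 standard errors of 0.

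The direction itself depended on which libraries were set against each other. The nuclear median was 0.10 with all libraries, -0.0065 without injury sample 2, when 19 of 35 nuclear members were lower in conduit, and 0.22 without injury sample 1. Leaving out conduit sample 1, 2 or 3 gave 0.19, 0.06 and 0.05. Batch 2 holds 1 library of each group, injury sample 3 and conduit sample 1, and within it the nuclear median was -0.10 and the mitochondrial median -0.07, with no replicate. With batch as a term in edgeR, a fit whose group estimate rests on those 2 libraries, 34 of 35 nuclear members were lower in conduit, 2 of 7 mitochondrial members were higher, and no member was called. Batch 1 and batch 3 each hold samples of 1 group only.

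Nuclear members were high or low together in a library, in both groups. To put genes on 1 scale, each log2 CPM value was taken minus that gene's mean over the 6 libraries. The median of this deviation over the 35 nuclear members was 0.18, -0.30 and -0.05 in injury samples 1 to 3 and -0.13, 0.12 and 0.16 in conduit samples 1 to 3. Injury sample 2 was the lowest of the 6 libraries for 28 of the 35 and conduit sample 1 for the other 7. Over all tested genes, injury sample 2 was lowest for 17.9% and conduit sample 1 for 19.2%. The highest library was conduit sample 3 for 12 nuclear members, injury sample 1 for 11, conduit sample 2 for 11 and injury sample 3 for 1. The median Pearson correlation between 2 nuclear members over the 6 libraries was 0.86 (595 pairs), between 2 mitochondrial members 0.65 (21 pairs), and between a mitochondrial and a nuclear member 0.13 (245 pairs). All these points share the same 6 libraries and their scaling.

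**Figure D3:**
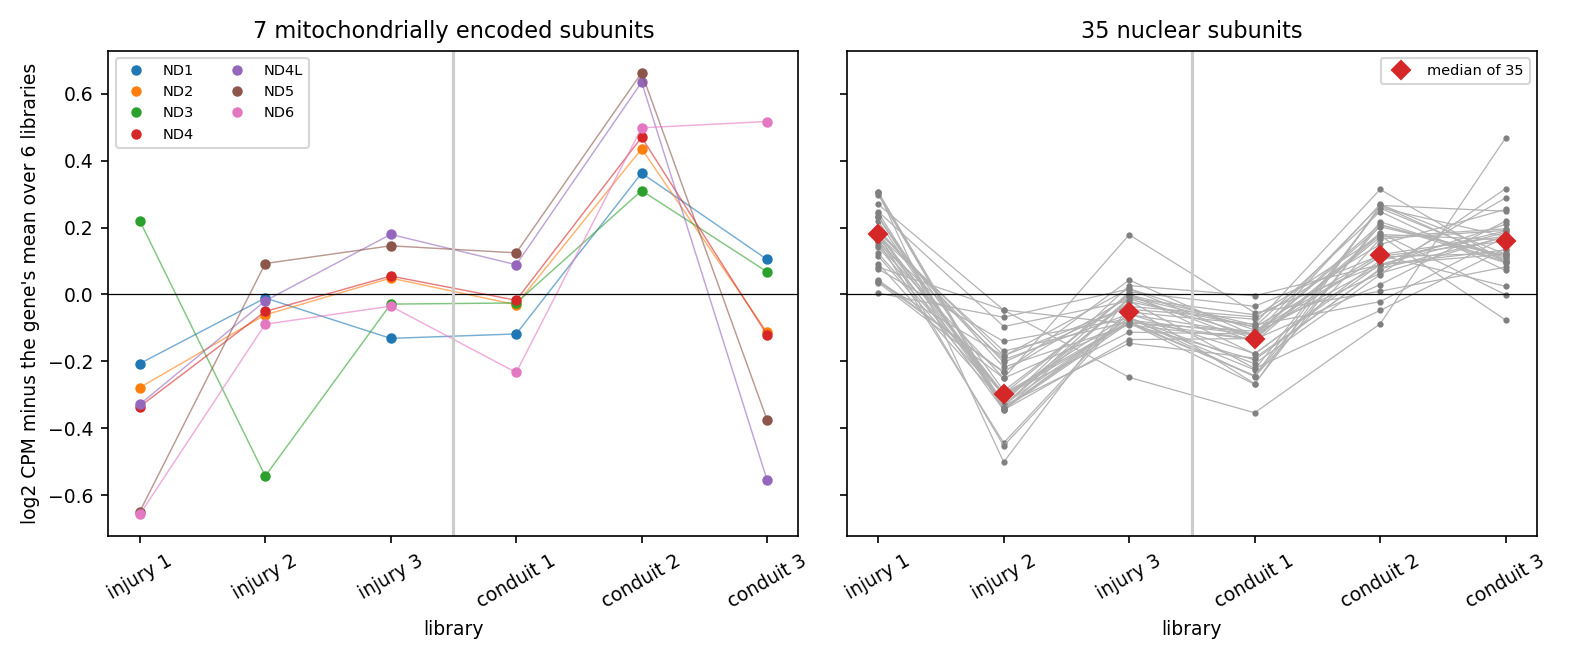
Log2 CPM minus the gene's mean over the 6 libraries, for 7 mitochondrial (left) and 35 nuclear members (right); thin lines join the values of 1 gene and carry no order in time. Nuclear members are low together in injury sample 2 (median -0.30), while ND5 is lowest in injury sample 1 and highest in conduit sample 2.

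The promoters of the nuclear members were also read, and a short motif recurs at the start of some of them. Its relation to the co-variation between libraries was not tested. Among 35 nuclear members, 33 have an entry in the RefSeq promoter table (build GRCr8, whereas the counts used mRatBN7.2), which spans 250 bases before to 50 after the start. Letters were searched on both strands. AAGATGGC, the core of the site of the factor YY1, was present in 8 of 33 (24.2%), against 3.44% of all 27457 promoters and 4.82% of those of tested genes. In all 8 it lay on the gene's strand after the start, at a first base between positions 5 and 27; of all promoters holding it, 36.4% had it there. The letters contain ATG, so they can also be the beginning of a reading frame. The 6 members in which the match ends within 30 bases after the start are printed from 60 bases before it, 5′ to 3′ on the gene's strand, with the motif in capitals.
Ndufs7, chr7:10110469-10110558, minus strand: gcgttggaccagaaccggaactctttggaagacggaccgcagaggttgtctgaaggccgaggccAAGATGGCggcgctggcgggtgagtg
Ndufa3, chr1:74515529-74515618, minus strand: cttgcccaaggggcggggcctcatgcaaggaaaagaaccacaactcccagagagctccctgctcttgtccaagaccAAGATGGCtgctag
Ndufa6, chr7:115750288-115750377, minus strand: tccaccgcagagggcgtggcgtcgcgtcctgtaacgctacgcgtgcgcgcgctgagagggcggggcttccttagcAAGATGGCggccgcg
Ndufa9, chr4:161374141-161374230, minus strand: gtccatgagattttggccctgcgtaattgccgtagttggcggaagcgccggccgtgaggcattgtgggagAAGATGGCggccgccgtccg
Ndufb8, chr1:253362907-253362996, minus strand: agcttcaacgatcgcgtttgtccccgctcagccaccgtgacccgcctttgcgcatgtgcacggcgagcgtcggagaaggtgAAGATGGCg
Ndufs4, chr2:47794885-47794974, minus strand: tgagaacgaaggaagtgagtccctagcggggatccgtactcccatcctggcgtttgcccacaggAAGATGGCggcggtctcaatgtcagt

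Motifs of other factors known from respiratory genes were also counted. GCATGCGC, from the site of NRF1, a regulator of nuclear genes for mitochondrial proteins, was in 2 of 33 (6.06%), against 2.66% of all promoters and 4.45% of those of tested genes. Its matches on opposite strands can overlap, as in Ndufa11, which holds 4 of them in 1 repeat, shown in capitals within the stretch from 120 to 61 bases before the start.
Ndufa11, chr9:1637494-1637553, plus strand: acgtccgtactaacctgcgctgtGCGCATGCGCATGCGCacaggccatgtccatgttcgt
CCGGAAG, the ETS-family core, was in 7 of 33 (21.2%), against 9.22% of all promoters and 15.3% of those of tested genes. TGACGTCA, the cAMP response element, was in 2 of 33 (6.06%), against 1.91% and 2.94%, and TCAAGGTCA, from the site of the oestrogen-related receptors, in 0 of 33, against 0.412% and 0.257%. A match describes letters in this window and no binding.

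Set against each other in each library, mitochondrial and nuclear members gave ratios that overlapped between groups when summed. Summed over members, mitochondrial FPKM was 2.55, 3.81 and 3.48 times nuclear FPKM in injury samples 1 to 3 and 3.61, 4.11 and 2.82 times in conduit samples 1 to 3 (3.28 ± 0.657 against 3.52 ± 0.648, SD, n = 3 per group). The lowest library of each group was the one with the lowest ND5, injury sample 1 and conduit sample 3. The ratio of the median member of each class behaved otherwise: it was 16.7, 16.1 and 17.3 in injury and 19.4, 19.7 and 18.2 in conduit, without overlap. With 3 samples a group, 5.41% of all tested genes were also higher in conduit without overlap. The groups overlapped for the summed ratio and for the difference on the deviation scale below. The median mitochondrial member was ND4 in injury sample 1, ND4L in injury sample 2 and ND3 in the other 4 libraries. No p is given for these scores. On the deviation scale, mitochondrial minus nuclear was -0.51, 0.25 and 0.10 in injury and 0.11, 0.35 and -0.27 in conduit. The difference between the 2 classes' median log2 fold changes was 0.14, and its range with 1 library left out was -0.08 to 0.30. Of all counts from the 13 protein-coding genes of mitochondrial DNA, the ND genes made up 18.4%, 22.9% and 21.3% in injury and 22.6%, 24.2% and 20.4% in conduit.

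Several properties of the libraries moved with the nuclear members, some of them only in part. The members' mRNAs are short, with a median deposited length of 675 bases, against 3361 over all tested genes, and 25 of 35 are under 1000 bases. Over all 1000 tested genes of under 1000 bases the median deviation was 0.16, -0.18 and -0.03 in injury and -0.08, -0.02 and 0.13 in conduit. Over the 6598 genes of 4000 bases or more it was -0.09, 0.06 and 0.02 in injury and 0.06, 0.03 and -0.09 in conduit. Short genes were thus high, and long genes low, in injury sample 1 and conduit sample 3. ND5, of 1830 bases, was low in the same 2 libraries. Its own length class, 1000 to 2000 bases, was high there, with medians of 0.09 in injury sample 1 and 0.11 in conduit sample 3. The 39 nuclear genes of complexes II to V had medians of 0.18, -0.28 and -0.07 in injury and -0.16, 0.16 and 0.17 in conduit. Sensory neuron markers summed to 20295, 18715 and 18534 CPM in injury and 16662, 18276 and 23739.8 CPM in conduit, and were highest in the same 2 libraries. In conduit sample 2 the nuclear members stood at 0.12 and short genes at -0.02. Sensory neuron markers were lower there than in injury sample 2, the library where most nuclear members were lowest.

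Markers of other cells differed between libraries too. Schwann cell markers summed to 37898, 30680 and 38315 CPM in injury and 51494, 43783 and 50222 CPM in conduit. Of these markers 6 of 8 were lowest in injury sample 2, against 17.9% of all tested genes. Most nuclear members were lowest in that library too. For the 8 markers edgeR called 0, against 0.00607% of all tested genes. DESeq2 called 3, against 1.19% of the genes to which it gave an adjusted p. Satellite glia markers summed to 4265 to 4812 CPM in injury and 4830 to 5647 CPM in conduit. Dividing cell markers summed to 17.3, 99.0 and 65.5 CPM in injury and 21.5, 19.4 and 15.8 CPM in conduit. They were highest in injury sample 2 for 8 of 8, against 19.3% of all tested genes. Red cell markers summed to 4953, 5338 and 4604 CPM in injury and 1285, 522 and 571 CPM in conduit. They were lower in conduit without overlap for 10 of 10, against 4.22% of all tested genes. For these markers edgeR called 0 and DESeq2 9, against the same shares over all genes as above. Macrophage markers ranged from 82.3 to 197 CPM, highest in conduit sample 1, and adipocyte markers from 2.28 to 25.6 CPM, highest in conduit sample 2, with Ucp1 at 0 in 3 libraries. The part of transcript length and of muscle, neuron, glia, blood or dividing cell content in the members' levels was not tested.

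**Figure D4:**
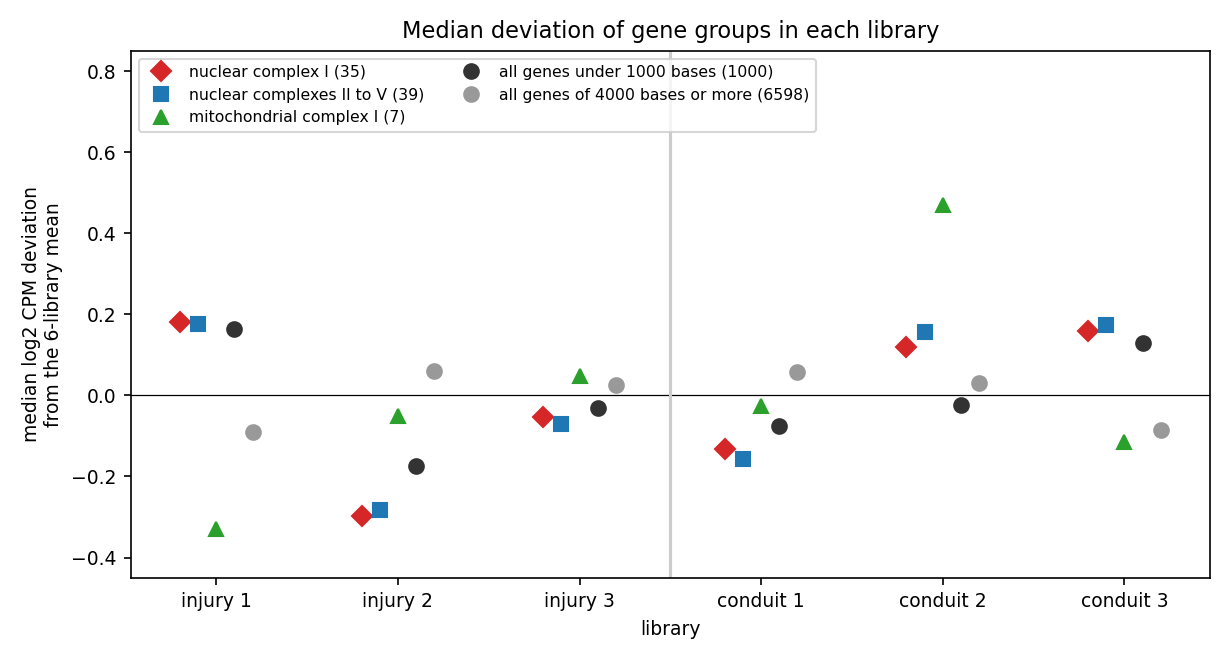
Median deviation from the 6-library mean, in log2 CPM, of 5 gene groups in each library, with the number of genes in brackets. Nuclear complex I and complexes II to V lie close together in each library (0.18 and 0.18 in injury sample 1), and mitochondrial complex I departs from both, at -0.33 there and 0.47 in conduit sample 2.

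Leaving out injury sample 1 and conduit sample 3 together gave a mitochondrial median of 0.25 and a nuclear median of 0.17, with no member called. Without injury sample 1 and conduit sample 2 the nuclear median was 0.20. Both choices were made after seeing the data.

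The other protein-coding genes of mitochondrial DNA showed the same lack of calls. COX1, the catalytic subunit of complex IV, was 19424 ± 1810.4 CPM in injury and 21099.7 ± 2908 CPM in conduit (n = 3 per group). COX2, which accepts electrons from cytochrome c, was 5054, 3919 and 5479.8 CPM in injury and 4591, 6011 and 5866 CPM in conduit, and was lowest in injury sample 2, as was ND3. CYTB, the mitochondrial subunit of complex III, was 4078, 4954 and 5119.6 CPM in injury and 4277, 5599 and 4583 CPM in conduit, lowest in injury sample 1 like ND4 and ND5. Log2 fold changes ran from -0.02 (COX3, SE 0.10) to 0.21 (ATP8, SE 0.26), with ATP6 at 0.11 (SE 0.13), and 0 of 6 passed.

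Assembly factors, which build the complex without staying in it, and genes that transcribe, process and copy mitochondrial DNA were given by list. Of 16 assembly factors tested 0 were called and 14 had positive estimates (median 0.08). Ndufaf6, an assembly factor for the early membrane part, had the smallest p: it was 9.0, 7.69 and 8.75 CPM in injury and 9.72, 11.2 and 11.9 CPM in conduit, without overlap (log2 fold change 0.37, SE 0.14; edgeR adjusted p = 0.8965). Ndufaf5, which modifies Ndufs7, was 25.9 ± 1.20 CPM and 28.5 ± 2.81 CPM and overlapped. Of 13 genes of mitochondrial DNA expression 0 were called and 11 had positive estimates (median 0.11). Tfb1m, a methylase of mitochondrial ribosomal RNA, was 62.5, 62.6 and 61.2 CPM in injury and 74.1, 71.3 and 69.7 CPM in conduit, without overlap (log2 fold change 0.21, SE 0.07; edgeR adjusted p = 0.8095). Slirp, which stabilises mitochondrial mRNAs, was 18.2, 14.6 and 18.7 CPM in injury and 18.9, 19.1 and 21.2 CPM in conduit, also without overlap. Every conduit library lay above every injury library for 1 of the 16 assembly factors and 2 of the 13 expression genes, where 5.41% of all tested genes did so. Ndufb1, a subunit of the complex outside the 42, was 20.2 ± 4.50 CPM in injury and 21.3 ± 3.49 CPM in conduit, and the groups overlapped.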

How the data were processed

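Trigeminal ganglion RNA from 6 rat samples was sequenced after mRNA purification, per the labels' protocols. HISAT2, HTSeq, fastp, SAMtools, DESeq2 and the build mRatBN7.2 were used upstream, per the submitters' processing notes; their versions and the annotation are not stated there. The deposited counts are unscaled whole numbers of reads per gene symbol. The deposited FPKM values are these counts per kilobase of gene and library total: count and FPKM gave the same length within 1% in all libraries for 42 of 42 members.

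Groups came from the titles. In R 4.3.3, edgeR 4.0.16 compared conduit with injury over all genes kept by filterByExpr (minimum count 10), with TMM scaling, the robust quasi-likelihood test, no covariate and Benjamini-Hochberg adjustment (threshold 0.05). The SE is the fold change divided by the root of F. Log2 CPM used a prior count of 2. Alternatives were other scalings and filters, DESeq2 1.42.0, limma 3.58.1 on counts or log2 FPKM, the replicate number or batch in the fit, and each library left out; 2 pairs of libraries were also left out, chosen after seeing the data. The fits were tested on simulated data.

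Members, lists and the naming rule were chosen with earlier results of these data known. Named were all mitochondrial and nuclear core members; the accessory members with the smallest p in each direction (up to 4) and the highest and lowest FPKM; 2 assembly factors and 2 genes of mitochondrial DNA expression with the smallest p; and the other genes of mitochondrial DNA. Other genes named were chosen after their values were seen. Length classes were also chosen after seeing the data. With 3 samples a group, an exact two-sided permutation test of a single value cannot give p under 0.1.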

Additional observations from a re-analysis of the deposited data

How the results depend on the processing

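No complex I member was called under any of the 19 other fits run (20 with the reported one; the within-batch value has no test), and the lowest adjusted p of a named gene in them was 0.301. The mitochondrial median ranged from 0.04 to 0.35 and the nuclear median from -0.0065 to 0.22 with each library left out. Batch as a term gave -0.072 and -0.11, batch 2 alone -0.072 and -0.10. Without injury sample 1 and conduit sample 2 the mitochondrial median was -0.056 and mitochondrial minus nuclear -0.25. Over all genes edgeR called 1; the count was 6 without a filter, 209 in DESeq2, 9 and 5 in limma on log2(FPKM + 1) and log2(FPKM + 0.1), 0 with batch as a term, 0 to 38 with each library left out (injury sample 1 left out gave 38, injury sample 3 gave 35, conduit sample 1 gave 6 and conduit sample 3 gave 0), 42 without injury sample 1 and conduit sample 3, and 13 without injury sample 1 and conduit sample 2. The replicate block gave 0 genes called over all genes and medians of 0.23 and 0.10; same-numbered samples deviated together at r = -0.42, 0.06 and -0.07, so the titles' numbers were not taken to pair samples. Of 30 named genes, 25 changed direction at least once (59 of 570 values); none was called in any fit.

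With each library left out, log2 fold changes ranged from -0.014 to 0.46 for ATP8, -0.076 to 0.069 for COX3, -0.083 to 0.11 for CYTB, -0.15 to 0.43 for ND4L, -0.0023 to 0.51 for ND5, -0.044 to 0.11 for Ndufs1, -0.060 to 0.17 for Ndufs3, -0.22 to 0.21 for Ndufs6, -0.031 to 0.18 for Ndufv1, -0.0065 to 0.25 for Ndufv2 and -0.18 to 0.031 for Ndufv3. On log2(FPKM + 1) and log2(FPKM + 0.1), Ndufs1 was -0.023 and -0.023, Ndufv1 -0.0049 and -0.0050, Ndufs3 -0.023 and -0.023, Ndufs6 -0.031 and -0.037, and CYTB -0.027 and -0.027. With batch as a term, the values turned to -0.080 (ND2), -0.072 (ND4), -0.091 (ND4L), -0.021 (ND5), -0.20 (ND6), -0.15 (Ndufs1), -0.16 (Ndufv1), -0.11 (Ndufv2), -0.23 (Ndufs3), -0.18 (Ndufs7), -0.075 (Ndufs8), -0.029 (Ndufa6), -0.052 (Ndufb5), -0.090 (Ndufa12), -0.036 (Ndufc1), -0.16 (Ndufb8), -0.11 (Ndufs6), -0.014 (Ndufaf5), -0.26 (CYTB), -0.055 (COX1), -0.26 (COX2), -0.19 (ATP6) and -0.42 (ATP8). Without injury sample 1 and conduit sample 3 they turned to -0.065 (Ndufs6) and -0.023 (CYTB). Without injury sample 1 and conduit sample 2 they turned to -0.056 (ND2), -0.060 (ND4), -0.27 (ND4L), -0.21 (ND5), -0.030 (Ndufs1), 0.038 (Ndufv3), -0.17 (CYTB) and -0.0043 (ATP6). The cause of these turns was not tested. Depth limits ND6 and Ndufs6, with 34 to 175 counts.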

Other observations

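Ndufa10l1, a gene that RefSeq places on chromosome 6 and that shares the name of the accessory subunit Ndufa10 as a synonym, stood at 2 separate levels that did not follow the groups. It was 36.8, 15.8 and 37.1 CPM in injury samples 1 to 3 and 15.4, 15.9 and 37.1 CPM in conduit samples 1 to 3. The high libraries lay between 36.8 and 37.1 CPM and the low ones between 15.4 and 15.9 CPM. Ndufa10 itself, on chromosome 9, was 193, 176 and 171 CPM in injury and 159, 192 and 205 CPM in conduit, with no such split. How reads of the related genes were divided in the counting was not tested. The gene was chosen after its values were seen.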
